A study of Mus musculus with 14 samples.

Results

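The 10 genes described here encode secreted factors of the bone morphogenetic protein (BMP) pathway and its relatives. They are the ligand genes Bmp2, Bmp4, Bmp6, Bmp7, Gdf6, Gdf7 and Inhbb and the antagonist genes Nog, Chrd and Grem1. Each was represented by the H3K27me3 peaks lying within 10 kb of its RefSeq gene body, which gave 47 of the 74458 peaks of the series, between 1 peak (Chrd) and 10 peaks (Bmp7) per gene. H3K27me3, the repressive histone mark written by Polycomb repressive complex 2, was measured by Cut&Tag, in which an antibody directs a transposase to cut and tag the DNA next to the mark, in mouse embryonic stem cells (mESCs) of the G4 line grown with LIF on CD1 feeder cells. The cells carried homozygous CRISPR-Cas9 deletions of an H3K27me3 loop anchor, which lay in the Hoxa cluster (Hoxa2 to Hoxa13), around Wnt6 or around Hmx1.

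There were 3 H3K27me3 libraries of the Hoxa deletion, 2 of the Wnt6 deletion and 2 of the Hmx1 deletion. Every library came from deleted cells and no library of unedited cells was analysed here, so each deletion was compared with the other 2 pooled, and the comparisons share libraries. A deletion may be represented by a single edited clone, in which case the deletion and the clone cannot be told apart, and nothing in the labels says that the libraries of a deletion came from separate cultures, so the p-values measure the spread between these libraries. The total counts in peaks ran from 6016500 to 36563541 per library, and the median count per peak from 23 to 148. None of the 10 genes lies on chromosome 5 or 6, where Hmx1 and the Hoxa cluster are, and Inhbb is on chromosome 1, as is Wnt6. Across the genome the chromosome 8 peaks were lower in the Hoxa deletion, with a median log2 fold change of -0.59 over 5579 peaks, and none of the 10 genes lies there. The level of a gene is the sum of its peaks as CPM (counts divided by the library total, scaled by the TMM method), per kb of peak, and a level in a population of cells does not tell a mark carried by fewer cells from a weaker mark on each.

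BMP ligands are secreted dimers of the TGF-beta superfamily that bind paired type I and type II serine/threonine kinase receptors and signal through Smad1, Smad5 and Smad9 with Smad4. Noggin, chordin and gremlin bind the ligands outside the cell and keep them from their receptors. In early embryos this system patterns the dorsoventral axis, mesoderm, limb and neural tube, its genes are typical Polycomb targets in pluripotent cells, and BMP4 together with LIF is a known support of mESC self-renewal.

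CpG-rich promoters are the usual sites of H3K27me3 in mESCs, so the promoter window of RefSeq (GRCm38.p6, 250 bases before to 50 after the start) is shown for 3 genes. Inhbb had the lowest level of the 10, Bmp4 had the level that varied most between libraries, and Gdf7 had the highest level among the 6 genes matched in the promoter table. Bmp4 and Gdf7 were added after their values were seen. Capitals mark CG, searched as the 2 letters, which read the same on both strands.
Inhbb (chr1:119422199-119422498, minus strand): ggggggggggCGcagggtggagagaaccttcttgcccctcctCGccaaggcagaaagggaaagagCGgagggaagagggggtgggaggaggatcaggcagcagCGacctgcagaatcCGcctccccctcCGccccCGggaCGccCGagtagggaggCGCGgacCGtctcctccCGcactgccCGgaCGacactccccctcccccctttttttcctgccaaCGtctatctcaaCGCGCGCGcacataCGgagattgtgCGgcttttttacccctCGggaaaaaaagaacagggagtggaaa
Bmp4 (chr14:46390620-46390919, minus strand): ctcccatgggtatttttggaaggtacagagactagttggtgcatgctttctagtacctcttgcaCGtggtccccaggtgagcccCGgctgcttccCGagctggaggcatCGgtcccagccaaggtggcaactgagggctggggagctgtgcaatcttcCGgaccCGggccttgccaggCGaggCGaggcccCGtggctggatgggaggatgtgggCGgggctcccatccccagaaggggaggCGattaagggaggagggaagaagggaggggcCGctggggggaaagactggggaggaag
Gdf7 (chr12:8301905-8302204, minus strand): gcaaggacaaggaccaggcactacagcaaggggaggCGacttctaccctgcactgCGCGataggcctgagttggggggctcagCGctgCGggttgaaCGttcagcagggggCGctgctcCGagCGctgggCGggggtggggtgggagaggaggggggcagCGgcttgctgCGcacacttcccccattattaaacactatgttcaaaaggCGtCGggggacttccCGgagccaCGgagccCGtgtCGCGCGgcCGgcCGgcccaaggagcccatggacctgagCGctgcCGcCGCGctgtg
The Bmp4 window held 12 CG, an observed over expected ratio of 0.42, and 39.6% of the 32851 promoters of the table held at least as many. The Gdf7 window held 26 and the Inhbb window 23. The other matched genes were Bmp6 with 27, Grem1 with 28 and Chrd with 34, so Bmp4 had the fewest of the 6. The median of all promoters was 7, and 94.6% held at least 1.

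All 10 genes carried H3K27me3 peaks, and most carried them at high levels. The median of the 47 peaks was 22.4 CPM, against 3.80 CPM over all peaks of the series. A peak over 100 CPM was found at 8 of the 10 genes (10 peaks, where 3.02% of all peaks reached that level), and the exceptions were Bmp4 and Inhbb. At the other end, 16 of the 47 peaks were under 10 CPM and 6 were under 2 CPM. Of the 47 peaks, 33 overlapped the body of their gene.

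Gdf6, a ligand of joint and eye development, had the highest mean level, 77.1 ± 4.71 CPM per kb (SD, n = 7 libraries). Bmp2, a ligand of heart and mesoderm formation, followed with 74.1 ± 6.51, and Gdf7, a roof plate ligand that acts on dorsal interneurons, with 73.8 ± 5.04. Nog, which encodes noggin, had 70.5 ± 3.67. These 4 neighbours in the order did not differ beyond their spread, with exact sign-flip permutation p-values adjusted over the 9 neighbouring pairs of 0.201 to 0.922. Their order also changed with the window. Gdf7 came first when peaks were taken in the gene body only, within 5 kb, for the nearest gene or as the highest single peak. Bmp2 came first within 25 kb. With the gene body only, all 9 neighbouring pairs of that order differed, including Grem1 with Bmp6 and Bmp4 with Inhbb.

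A step down followed. Bmp6, a ligand known for its part in iron regulation, had a level of 58.5 ± 4.05 CPM per kb and lay below Nog in 7 of 7 libraries (1.21-fold, exact two-sided sign-flip permutation test, adjusted p = 0.0352). The smallest p this test can give with 7 libraries is 0.0156. Grem1, which encodes gremlin and acts in limb outgrowth, had 56.4 ± 3.62 and did not differ from Bmp6 beyond the spread (adjusted p = 0.0844). Grem1 lay above Bmp6 in each of those other 5 readings.

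The lower levels belonged to Chrd, Bmp7, Bmp4 and Inhbb. Chrd, which encodes chordin, had 44.4 ± 3.11 CPM per kb, and Bmp7, a ligand of kidney and eye development, had 33.8 ± 1.76. Each lay below its upper neighbour in 7 of 7 libraries (adjusted p = 0.0352 for both). Taken by its highest single peak per kb, however, Bmp7 came above Grem1, Bmp6 and Chrd (92.0 CPM per kb against 82.8, 77.6 and 44.4). Bmp4 had 20.5 ± 5.09 and again lay below Bmp7 in 7 of 7 libraries (1.69-fold, adjusted p = 0.0352 by the exact permutation test). Inhbb, which encodes the beta-B subunit of activins and inhibins and so belongs to the activin branch rather than to the BMPs, had the lowest level, 17.2 ± 1.21, and did not differ from Bmp4 beyond the spread (adjusted p = 0.229). The order of these 2 genes differed between deletions, since Bmp4 was higher than Inhbb in all 3 Hoxa and both Wnt6 deletion libraries and lower in both Hmx1 deletion libraries (15.7 and 17.1 against 18.1 and 19.1). All 10 means were above the median of all genes with a peak, 9.36 CPM per kb.

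**Figure D1:**
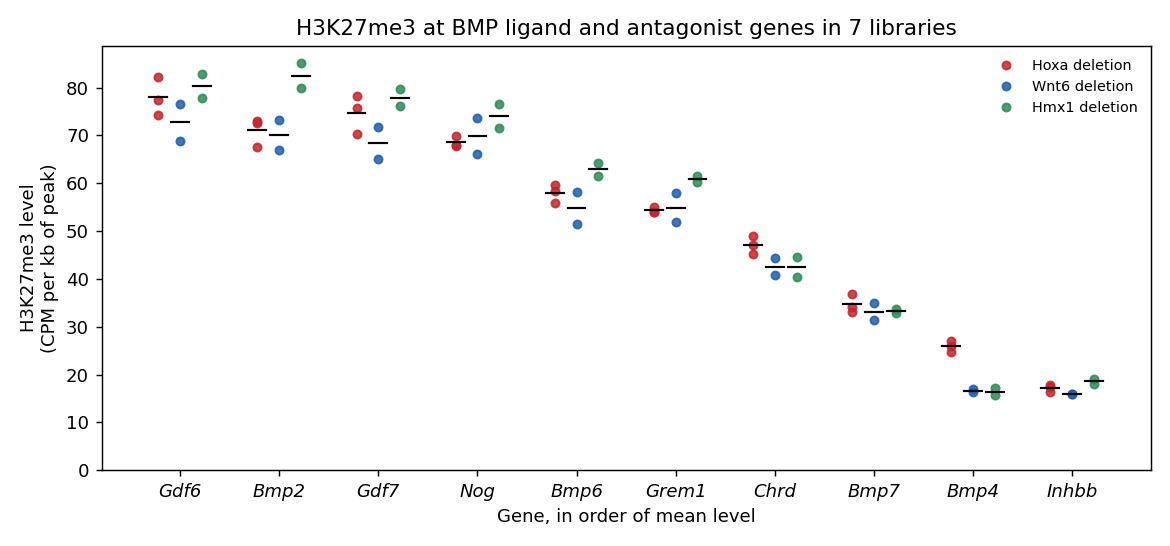
H3K27me3 level (CPM per kb of peak) of each gene on the vertical axis, genes in order of mean level on the horizontal axis. Each dot is 1 library, coloured by deletion, and each bar is the mean of a deletion. At Bmp4 the 3 Hoxa deletion libraries sit between 24.7 and 27.1, above the other 4 libraries, which lie between 15.7 and 17.1.

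The genes differed in how the mark was laid out. At Bmp6 a single peak over the start (chr13:38344864-38347942) carried 98.0% of the signal, with 239 CPM, and the other 4 peaks, inside the gene, had 0.881 to 1.45 CPM. The Inhbb peak over the start (chr1:119419446-119424034) carried 92.7% of its signal and was long but weak, with 19.4 CPM per kb. Grem1 had 87.6% in the peak over its start (chr2:113756755-113759310, 211 CPM). Chrd had a single peak over its start (chr16:20732477-20736197, 165 CPM) that also overlapped the thrombopoietin gene Thpo, so its signal cannot be assigned to Chrd alone.

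In contrast, Gdf6 had its signal spread over 5 peaks in the gene body, the strongest (chr4:9858937-9860470) holding 39.4% with 169 CPM. Gdf7 had 47.4% over its start (chr12:8301010-8303409, 216 CPM) and 38.3% in a peak further into the gene (chr12:8297578-8299105, 175 CPM) that also overlapped Ldah. Bmp4 was divided most evenly into weak peaks, since its strongest peak held 31.0% with 36.7 CPM.

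The level of Bmp4 varied most between libraries. Its coefficient of variation over the 7 libraries was 24.8%, against 5.21% to 8.79% for the other 9 genes. In the Hoxa deletion Bmp4 had 26.0, 27.1 and 24.7 CPM per kb in replicates 1 to 3. The Wnt6 deletion gave 16.9 and 16.3, and the Hmx1 deletion 15.7 and 17.1. The 3 Hoxa deletion libraries were the 3 highest and did not overlap the others, whereas the libraries of the other 2 deletions overlapped each other.

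Summed over its peaks, Bmp4 was higher in the Hoxa deletion than in the other 2 deletions by 0.65 on the log2 scale (SE 0.0667, 1.57-fold, adjusted p = 7.53e-10, edgeR quasi-likelihood test across 30959 genes with Benjamini-Hochberg adjustment). It was the only one of the 10 genes past the test in that comparison, in which 18.3% of all genes passed and 12.2% passed as higher, so 1 of 10 is no more than the share of all genes. In the fit with a term for each deletion, the difference was 0.64 (SE 0.0761) against the Wnt6 deletion alone and 0.65 (SE 0.078) against the Hmx1 deletion alone. Between the Wnt6 and Hmx1 deletions it was 0.01 (SE 0.0849, adjusted p = 0.993).

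The higher level was not limited to 1 peak, since 5 of 6 passed the test. The gene (chr14:46383525-46390669, minus strand, mm10) had 6 peaks, and at each of them the 3 Hoxa deletion libraries lay above the other 4, a pattern seen at 9.09% of all peaks. The peak over the start (chr14:46389561-46390849), which holds most of the promoter window printed above, had 49.5, 46.7 and 44.3 CPM in the Hoxa deletion, 29.7 and 29.7 in the Wnt6 deletion and 26.4 and 30.4 in the Hmx1 deletion. Every Hoxa deletion library was thus well clear of the rest at the promoter. The log2 difference there was 0.68 (SE 0.101, adjusted p = 3.58e-06, edgeR across 74441 peaks).

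The largest difference in log2 terms lay inside the gene, 3.05 kb downstream of the start (chr14:46387342-46387901). This peak had 24.0, 25.8 and 27.8 CPM in the Hoxa deletion, against 14.5 and 13.8 in the Wnt6 deletion and 16.2 and 16.3 in the Hmx1 deletion. It was 0.78 higher (SE 0.118, adjusted p = 4.75e-06 by edgeR), and it also overlapped Gm15222, so the 2 genes share it. A second peak in the gene body (chr14:46385470-46385951) was 0.63 higher (SE 0.141, adjusted p = 0.00189 by edgeR).

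Both flanks moved in the same direction as the gene. The peak beyond the 3' end (chr14:46379531-46380720), which overlapped Gm15217, had 25.7, 31.2 and 25.6 CPM in the Hoxa deletion and 16.9 to 19.4 in the other 4 libraries, a difference of 0.61 (SE 0.115, adjusted p = 0.000212 by edgeR). The upstream peak, 7.49 kb before the start (chr14:46397156-46399161), had 29.4, 32.8 and 25.6 CPM against 17.6 to 21.0, a difference of 0.60 (SE 0.115, adjusted p = 0.00024 by edgeR). The weakest peak (chr14:46388692-46388928, mean 5.37 CPM) had a log2 fold change of 0.42 (SE 0.177, adjusted p = 0.149) and did not pass the test. Farther out peaks were sparse: 2 lay 10 to 50 kb from the gene, none from 50 to 100 kb and 2 from 100 to 250 kb, and none of these 4 passed the test, at means of 0.924 to 5.01 CPM. Those 10 to 50 kb away had log2 fold changes of 0.31 (SE 0.188, adjusted p = 0.362) and 0.73 (SE 0.259, adjusted p = 0.0692). The first was below the range of the Bmp4 peaks, 0.42 to 0.78, and the second was in it. With these errors, where the difference ends cannot be read from these data. Those beyond 100 kb had -0.35 and 0.07. Over all 2822 chromosome 14 peaks the median log2 fold change was 0.01.

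**Figure D2:**
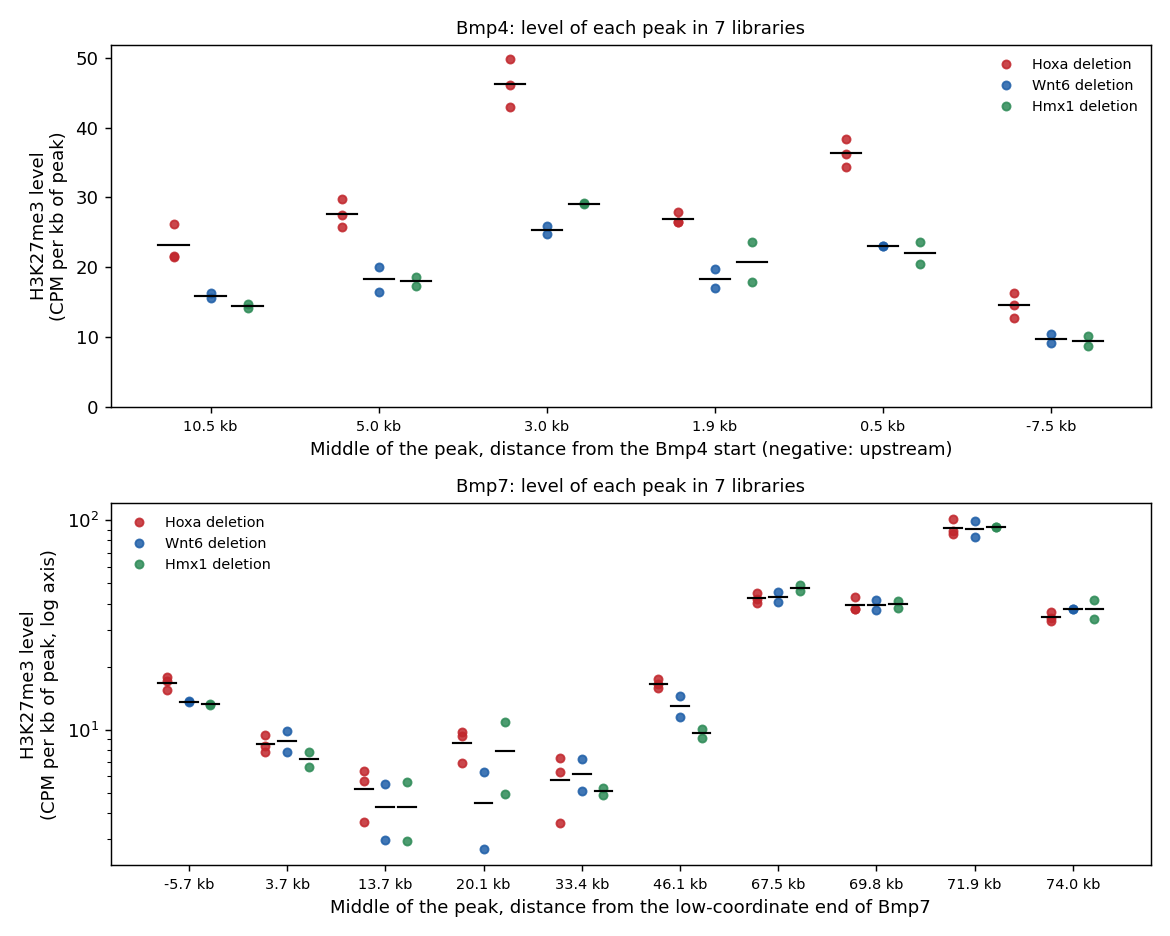
H3K27me3 level (CPM per kb of peak) of each peak of Bmp4 (linear axis) and Bmp7 (log axis), placed along the horizontal axis in order of coordinate and labelled with the distance of the peak's middle from the Bmp4 start or from the low-coordinate end of Bmp7. Dots are libraries and bars are means of a deletion. The Hoxa deletion dots lie above the others at all 6 Bmp4 peaks, whereas at Bmp7 they do so at 2 of 10 peaks and not at the strongest.

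Across the 47 peaks, no peak met the rule of a log2 fold change beyond 1 with an adjusted p under 0.05 in any of the 3 comparisons, by edgeR or by DESeq2. That rule called 1.55% of all peaks for the Hoxa deletion, 0.0497% for the Wnt6 deletion and 0.0282% for the Hmx1 deletion. Without the fold minimum, 7 of the 47 peaks were higher in the Hoxa deletion and none was lower, where 8.53% of all peaks passed and 4.32% passed as higher. Of these 7 peaks, 5 belonged to Bmp4 and 2 to Bmp7, and none of the 31 peaks of the other 8 genes passed. The test for any difference among the 3 deletions was passed by 6 of the 47 peaks, 5 of Bmp4 and 1 of Bmp7, and by 7.14% of all peaks. The median log2 fold change of the 47 peaks was 0.01 (range -0.82 to 0.78), against -0.01 over all peaks.

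Bmp7 combined a steady main domain with 2 weaker peaks that were higher in the Hoxa deletion. Its strongest peak (chr2:172938840-172940906) had 208, 178 and 184 CPM in the Hoxa deletion, 205 and 171 in the Wnt6 deletion and 191 and 192 in the Hmx1 deletion. The groups overlapped, and the log2 fold change was -0.0006 (SE 0.0763) for the Hoxa deletion. Inside the gene, the peak at chr2:172913552-172914711 had 20.3, 18.3 and 19.1 CPM in the Hoxa deletion, against 16.9 and 13.4 in the Wnt6 deletion and 10.6 and 11.7 in the Hmx1 deletion. All 3 Hoxa deletion libraries were above the others and the Hmx1 deletion libraries were lowest, with a difference of 0.54 for the Hoxa deletion (SE 0.133, adjusted p = 0.00497 by edgeR).

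The other Bmp7 peak (chr2:172860976-172863621) lay 4.39 kb outside the gene body and overlapped Gm36254 and 1700055K11Rik. It had 47.1, 45.1 and 40.9 CPM in the Hoxa deletion and 34.8 to 36.2 in the other 4 libraries, which was 0.32 higher (SE 0.0994, adjusted p = 0.0321 by edgeR). It no longer passed without Hoxa replicate 1 or 2 or without either Hmx1 replicate, with values of 0.27 to 0.31, and neither Bmp7 peak passed against the Wnt6 deletion alone or with all libraries reduced to equal totals. Because both peaks are small beside the main domain, the sum over Bmp7 was 0.06 higher in the Hoxa deletion (SE 0.066, adjusted p = 0.608).

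None of the remaining genes passed the test in the Hoxa deletion. Gdf6 differed by 0.03 (SE 0.0655) in the Hoxa deletion, Gdf7 by 0.03 (SE 0.0662) and Bmp6 by -0.02 (SE 0.0707). Inhbb, on the chromosome of Wnt6, differed by -0.16 in the Wnt6 deletion (SE 0.0808, adjusted p = 0.841) and by less than 0.01 in the Hoxa deletion. Among the antagonists Nog differed by -0.07 (SE 0.0672) and Grem1 by -0.09 (SE 0.0683). The adjusted p-values of Gdf6, Gdf7, Bmp6, Nog and Grem1 in the Hoxa deletion ran from 0.418 to 0.899. In the fit with a term for each deletion, larger differences lay between the Wnt6 and Hmx1 deletions. They were -0.23 (SE 0.0856) at Inhbb, -0.20 (SE 0.0768) at Bmp6 and -0.19 (SE 0.0744) at Gdf7. Grem1 had -0.15 (SE 0.0759), Gdf6 -0.15 (SE 0.0747) and Nog -0.09 (SE 0.0755). None of these passed the test (adjusted p = 0.288 to 0.756 by edgeR). Chrd had 48.9, 45.1 and 47.1 CPM per kb in the Hoxa deletion and 40.3 to 44.5 in the other 4 libraries, so the groups did not overlap (as at 16.5% of all genes), yet the difference of 0.15 (SE 0.0649) did not pass the test (adjusted p = 0.124). It passed when library totals alone or abundance-dependent offsets set the scale, with 0.15 and 0.14.

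**Figure D3:**
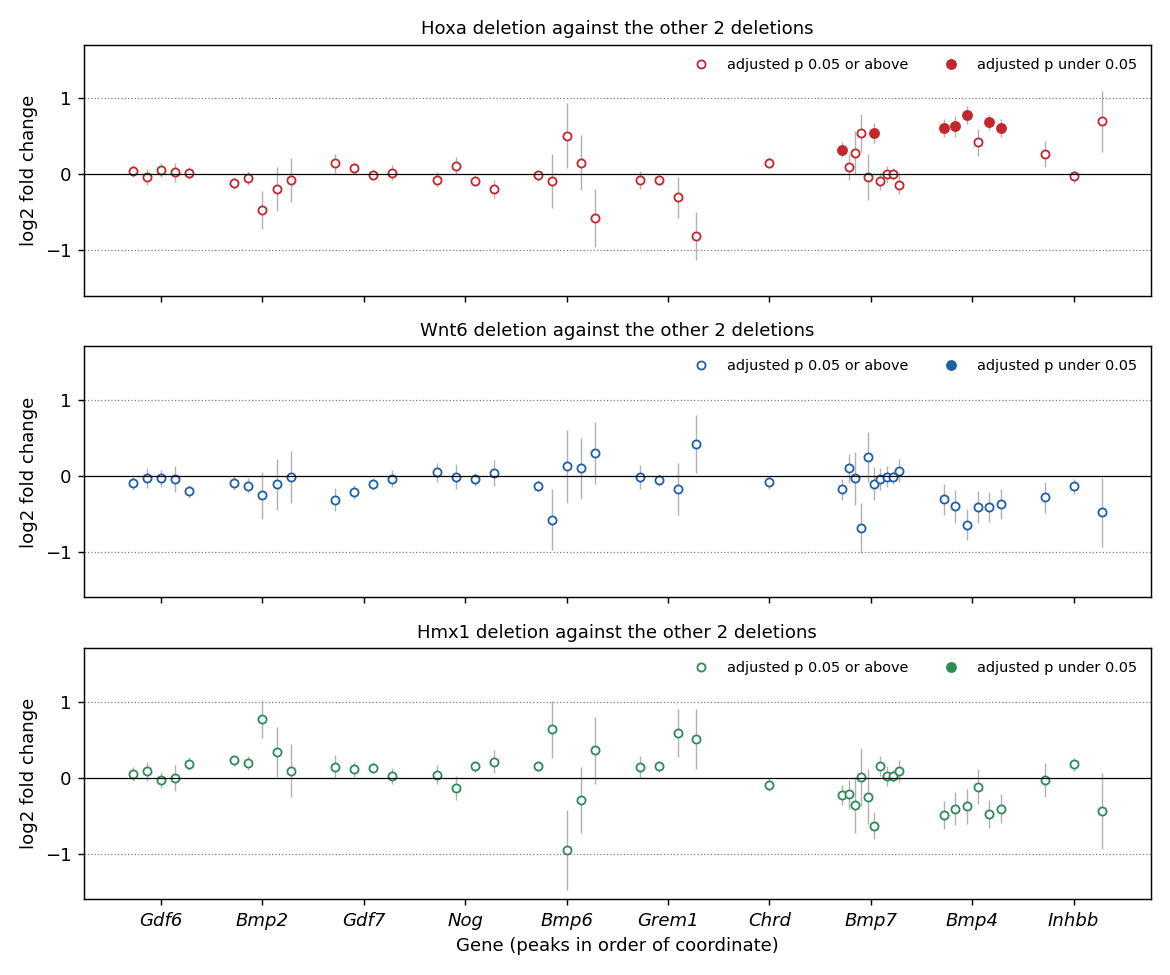
Log2 fold change of each of the 47 peaks (vertical axis, bars 1 SE) in each deletion against the other 2, grouped by gene on the horizontal axis. Filled points had an adjusted p under 0.05, and dotted lines mark log2 fold changes of -1 and 1. Filled points occur only in the Hoxa deletion panel, 5 at Bmp4 and 2 at Bmp7.

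Bmp2, which differed by -0.10 in the Hoxa deletion (SE 0.0725), had its highest levels in the Hmx1 deletion. It had 85.2 and 79.8 CPM per kb there, 73.1, 67.6 and 72.5 in the Hoxa deletion and 73.3 and 67.0 in the Wnt6 deletion. Both Hmx1 deletion libraries were above the other 5. The same held at Bmp6, Inhbb and Grem1, and the share of all genes with this pattern was not counted. At Bmp2 the difference of 0.22 against the other 2 deletions (SE 0.0695) did not pass the test (adjusted p = 0.223). Bmp2 passed the test for any difference among the 3 deletions (adjusted p = 0.022, edgeR). That call was lost without Hoxa replicate 2 (0.0671), without Hmx1 replicate 1 (0.36) or 2 (0.113) and with the library number of the labels as a block (0.0839), adjusted p-values given. In the fit with a term for each deletion, Bmp2 differed by -0.21 between the Hoxa and Hmx1 deletions (SE 0.0692, adjusted p = 0.0206). Between the Wnt6 and Hmx1 deletions it differed by -0.23 (SE 0.0758), which did not pass (adjusted p = 0.153 by edgeR). The unadjusted edgeR p-values of these 2 differences were close, 0.00297 and 0.00298. Of all 30959 genes, 5668 passed between the Hoxa and Hmx1 deletions and 237 between the Wnt6 and Hmx1 deletions. Bmp4 was the other of the 10 genes past the test for any difference (adjusted p = 7.19e-12), which 19.0% of all genes passed. The 2 strongest Bmp2 peaks, chr2:133551999-133553550 with 169 CPM and chr2:133553925-133555137 with 97.5 CPM, differed by 0.23 (SE 0.0727) and 0.19 (SE 0.0926) in the Hmx1 deletion, with adjusted p-values of 0.374 and 0.561.

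In the Wnt6 deletion none of the 10 genes passed the test by edgeR or by DESeq2 (0.0452% of all genes passed by edgeR), and 2 had an unadjusted p under 0.05, as did 5.77% of all genes. In the Hmx1 deletion none passed by edgeR (0.0517% of all genes passed) and 1, Bmp2, passed by DESeq2, as did 2.09% of all genes. There 3 had an unadjusted p under 0.05 by edgeR, against 13.3% of all genes. These comparisons fit 1 mean to the other 2 deletions, so any difference between those 2 adds to the spread. At Bmp4 the SE was 0.19 in the Wnt6 deletion, against 0.0667 in the Hoxa deletion. In the fit with a term for each deletion, 1 of the 10 genes passed in the Wnt6 deletion and 2 in the Hmx1 deletion. Of all 30959 genes, 970 and 2694 passed in that fit. All 10 fold changes were negative in the Wnt6 deletion, from -0.41 at Bmp4 to -0.02 at Nog, where 58.0% of all genes were negative with a median of -0.03. In the Hmx1 deletion 7 of 10 were positive, where 43.8% of all genes were positive with a median of -0.03. At the peak level, 6 of 47 in the Wnt6 deletion and 8 of 47 in the Hmx1 deletion had an unadjusted p under 0.05, against 5.20% and 8.95% of all peaks. None passed after adjustment, where 0.0564% and 0.0309% of all peaks did. The 3 lowest p-values in the Wnt6 deletion belonged to the Bmp4 peak with the largest difference above (-0.65), the Gdf7 peak shared with Ldah (-0.21) and the strongest Gdf6 peak (-0.20), each with an adjusted p of 0.92. Those in the Hmx1 deletion belonged to the Bmp7 peak inside the gene (-0.63, adjusted p = 0.322) and to 2 Bmp2 peaks (0.23 and 0.77, adjusted p = 0.374 and 0.379). These Bmp4 and Bmp7 values come from comparisons that share libraries with the Hoxa deletion comparison.

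Several weak peaks had large fold changes with large errors. The Grem1 peak at chr2:113766618-113766921 had a log2 fold change of -0.82 in the Hoxa deletion (SE 0.319, adjusted p = 0.106) at a mean of 2.02 CPM, with all 3 Hoxa deletion libraries below the other 4, as at 9.19% of all peaks. A Bmp6 peak inside the gene (chr13:38452269-38452522) had -0.95 in the Hmx1 deletion (SE 0.528) at 0.881 CPM, and the Inhbb peak 9.44 kb from the gene (chr1:119431692-119432243) had 0.69 in the Hoxa deletion (SE 0.404) at 0.984 CPM. None of these 3 peaks passed the test in the comparison named.

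A list of 67 further genes of the pathway was read in the same way, of which 62 had a peak within 10 kb and were tested. Their median level was 25.4 CPM per kb, against 57.4 for the 10 genes, and the highest levels belonged to the co-receptor gene Rgmb (70.8), the BMP target Id3 (60.2) and Fst, which encodes the activin antagonist follistatin (57.4). In the Hoxa deletion 14 of 62 passed the test, 11 higher and 3 lower, where 12.2% of all genes were higher and 6.12% lower.

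Among the 17 other ligands, Lefty2, a Nodal inhibitor of the same superfamily, was higher by 0.62 (SE 0.088) and Amh, the anti-Müllerian hormone gene, by 0.31 (SE 0.0913). Of the 14 receptors and co-receptors, 4 were higher. They were the type II BMP receptor gene Bmpr2 (0.55, SE 0.122), the activin receptor genes Acvr1b (0.28, SE 0.0869) and Acvr2b (0.57, SE 0.131), and Amhr2, the receptor for anti-Müllerian hormone (0.86, SE 0.178). None of these receptor genes had a mean level above 15.3 CPM per kb.

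Of the 17 other antagonists and modulators none was higher and 2 were lower, Tll1, which encodes a chordin-cleaving protease (-0.64, SE 0.0698), and the Nodal antagonist gene Dand5 (-0.49, SE 0.0702). Both lie on chromosome 8, whose peaks had the median of -0.59 given above, and the part of that shift in their values was not tested. Of the 14 Smads and targets, 5 were higher, namely Smad3 (0.19), Smad4 (0.40), Smad7 (0.53), Smad9 (0.29) and Id1 (0.60), and Id2 was lower (-0.19).

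No gene of the list passed in the Wnt6 deletion by edgeR (7 of 62 had an unadjusted p under 0.05 against 5.77% of all genes, and 1 passed by DESeq2 against 0.178%). In the Hmx1 deletion Id1 was lower by -0.99 (SE 0.15, adjusted p = 0.045 by edgeR), with 4.77 and 5.07 CPM per kb against 8.52 to 10.8 in the other 5 libraries, where 0.0355% of all genes were lower. That call was lost when any Hoxa or Hmx1 deletion library was left out.

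**Figure D4:**
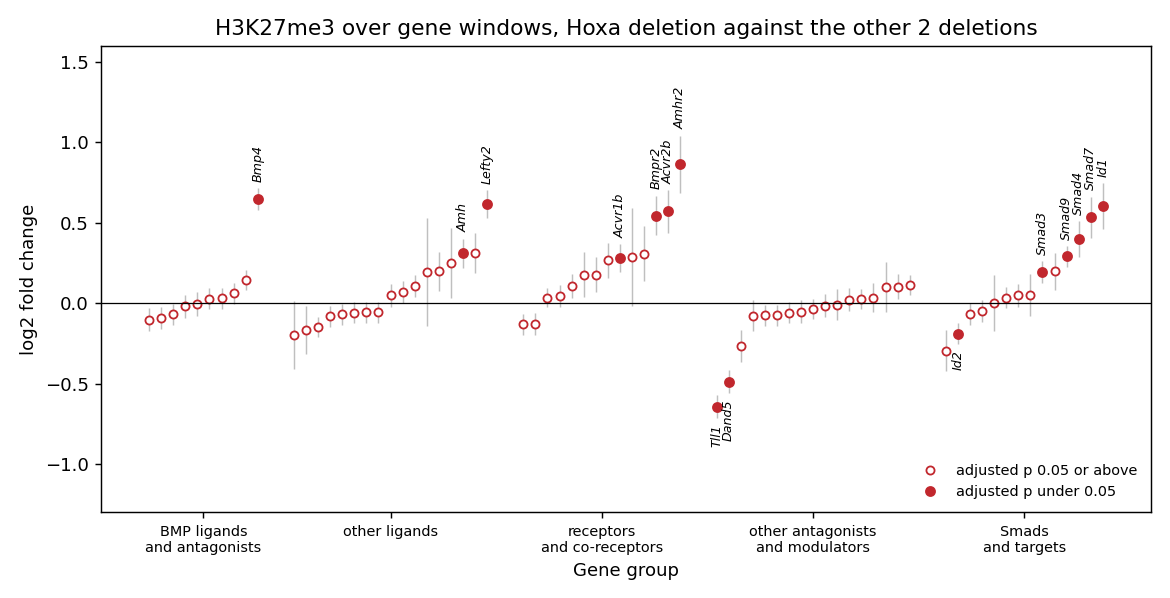
Log2 fold change of the summed H3K27me3 counts of each gene (vertical axis, bars 1 SE) in the Hoxa deletion against the other 2, for the 10 BMP ligand and antagonist genes and the 62 further pathway genes with a peak, in groups on the horizontal axis. Filled, named points had an adjusted p under 0.05. Bmp4 (0.65) is the only filled point of the 10 genes. The 2 lower genes among the other antagonists and modulators, Tll1 and Dand5, are on chromosome 8.

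The cell type was checked on marker genes, for which H3K27me3 is only an indirect reading. Of 8 pluripotency genes, 7 had a peak within 10 kb, at levels of 5.73 to 18.5 CPM per kb (median 7.14). Of 6 fibroblast genes that could mark feeder cells, 5 had a peak, at 19.4 to 51.0 CPM per kb, and none passed the test in any deletion, with log2 fold changes of -0.07 to 0.08 in the Hoxa deletion. Of the 7 pluripotency genes with a peak, 2 passed as higher in the Hoxa deletion, Klf4 (0.60) and Tfcp2l1 (0.84), where 12.2% of all genes did. None of the others passed. Among them Zfp42 was at -0.55 (SE 0.241), and Pou5f1, Nanog, Sox2 and Esrrb were at 0.11 to 0.17. The part of these genes in the Bmp4 result was not tested.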

How the data were processed

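Cut&Tag of mESCs carrying an anchor deletion gave 7 H3K27me3 libraries, which were used, and 7 IgG libraries, which were not analysed here. The authors deposited 1 table of counts, whole numbers per peak, without normalization, over 74458 peaks of median width 476 bases. The submitters' processing notes name the genome build mm10 and the tools Bowtie2, Trimmomatic, SAMtools, Picard, MACS2 and deepTools, without versions. Counting error and depth depend on the library totals (6016500 to 36563541), so weak peaks are the least precise.

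Samples were grouped by the genotype in the labels. Peaks were assigned to genes within 10 kb of RefSeq gene bodies (GRCm38.p6, the same build as mm10), with a peak counted for each gene it reached, and counts were summed per gene. The counts were fitted with edgeR 4.0.16 (limma 3.58.1, R 4.3.3) by the quasi-likelihood test with TMM scaling and filterByExpr, each deletion against the other 2, over all peaks or genes, with Benjamini-Hochberg adjustment. Peaks were called at an adjusted p under 0.05 with a log2 fold change beyond 1, and also without that minimum, and genes without it. SE is the fold change divided by the square root of its F statistic. DESeq2 1.42.0, other scalings, filters, windows and designs and leaving out each library were the alternatives. The scripts were tested on simulated data. Of simulated peaks with a log2 change of 0.6 up or down, 47% were recovered in the Hoxa deletion. The shares were 38% in the Wnt6 deletion and 34% in the Hmx1 deletion. They hold for the spread that was simulated, and a peak that did not pass may still differ. The libraries of a deletion differed by more than counting noise (chi-square per degree of freedom 1.95 to 3.31), so none was a duplicate. Replicate numbers did not pair the libraries (correlations of deviations from -0.04 to 0.08).

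The genes, lists and tests were chosen with earlier results of these data known. The text names the 10 genes and their 3 peaks of lowest p in each comparison, list genes past the test or among the 3 highest levels, and the promoter of the gene with the lowest level. The promoter rule also held the gene with the highest level, Gdf6, which was not matched in the promoter table, and the other promoters and peaks were named after their values were seen. Peaks have no strand.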

Additional observations from a re-analysis of the deposited data

How the results depend on the processing

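The limits are the 2 or 3 libraries per deletion, the lack of unedited cells in the comparisons, the shared libraries of the comparisons and the low counts of the weak peaks. The higher Bmp4 sum in the Hoxa deletion passed the test under all 24 alternatives, at 0.60 to 0.68, and no called value changed sign. With the replicate number as a block, Bmp4 was at 0.68 and 5 of its peaks were still higher. In that fit 12 further pathway genes passed in the Hoxa deletion, as did 4557 of all 30959 genes. The block removed the 1 pathway call of the Hmx1 deletion (0), and it changed no other call of the 10 genes.

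For the Hoxa deletion, the 7 peaks called without a fold minimum became 0 with it, as did the 1 gene (0 with the minimum). Leaving out each library in turn gave medians of the 47 peaks of -0.0046 to 0.036. The median was 0.037 with abundance-dependent offsets, -0.022 without chromosome 8, 0.064 against the Wnt6 deletion and -0.024 against the Hmx1 deletion, each taken alone. The genes called were 2 with library totals alone, with abundance-dependent offsets and against the Hmx1 deletion alone. The 14 pathway genes became 9 with the library number of the labels as a block and 8 against the Wnt6 deletion alone. Of all 30959 genes, 5674 passed in the main fit, 5735 with library totals alone and 5681 with offsets. There were 5668 against the Hmx1 deletion alone, 4363 against the Wnt6 deletion alone and 4184 with the library number block. For Bmp4, 3 peaks were left when only peaks in the gene body counted, which is fewer peaks. The 2 Bmp7 peaks became 0 with libraries reduced to equal totals and against the Wnt6 deletion alone. They became 1 with the library number block, without chromosome 8, against the Hmx1 deletion alone, in the gene body only and for the nearest gene only. With a library left out the count was 1 to 2 (1 without Hoxa replicate 1 or 2 or Hmx1 replicate 2). Without Hmx1 replicate 1 the count stayed at 2 although the peak outside the gene did not pass, since another Bmp7 peak passed in that fit.

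For the Wnt6 deletion, 1 of the 10 genes passed with 3 genotype terms and against the Hoxa deletion alone. Of all 30959 genes, 970 passed with 3 genotype terms and 4363 against the Hoxa deletion alone. Pathway calls were 1 with DESeq2 and with 3 genotype terms, 8 against the Hoxa deletion alone, 5 against the Hmx1 deletion alone and 0 to 1 with a library left out (1 without Hmx1 replicate 2). For the Hmx1 deletion, the median of the 47 peaks was 0.0063 with library totals alone, 0.085 against the Wnt6 deletion alone and 0.011 to 0.077 with a library left out (0.077 without Hmx1 replicate 1). Of the 10 genes, 1 passed with DESeq2 and 2 passed with 3 genotype terms and against the Hoxa deletion alone. Of all 30959 genes, 646 passed with DESeq2, 2694 with 3 genotype terms and 5668 against the Hoxa deletion alone. There were 237 against the Wnt6 deletion alone, 57 with library totals alone and 38 with offsets. Without Wnt6 replicate 2 there were 512 of 30954. Pathway calls were 5 with DESeq2, 2 with library totals alone and with offsets, 0 with equal totals and with the library number block, 13 with 3 genotype terms, 17 against the Hoxa deletion alone, 5 against the Wnt6 deletion alone and 0 to 4 with a library left out (4 without Wnt6 replicate 2). The 2 genes past the test of any difference became 5 with DESeq2 and with offsets, 4 with library totals and 1 with the library number block. With a library left out they were 1 to 5 (1 without Hoxa replicate 2 or either Hmx1 replicate, 5 without Wnt6 replicate 1). Of all 30959 genes, 5385 passed this test with DESeq2, 6508 with offsets, 6911 with library totals and 4255 with the library number block.

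The number of neighbouring pairs of levels that differed, 4, became 9 in the gene body only, 7 within 5 kb and 8 for the nearest gene only. With a library left out it was 0 to 0, which says nothing about these pairs, since the smallest p of the exact permutation test with 6 libraries is 0.0312 and 4 pairs at that p cannot pass the adjustment over 9. The cause of the other shifts was not tested.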
